A study of Mus musculus with 6 samples.

Results

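The genes described here are the collagen chains and laminin chains, taken as every row whose symbol is a collagen alpha chain (Col, a number, a, a number) or a laminin chain (Lama, Lamb or Lamc and a number). The rule found 55 of the 27378 genes listed, 44 collagens and 11 laminins. It used names only and no measured value. RNA was measured by sequencing in whole brain of wild-type (WT) male C57BL/6J mice given polystyrene nanoplastics (PS) or sterile distilled water (control) through the nose for 28 days, with 3 libraries per group. Both groups share genotype, strain, sex, route and duration and differ in the agent. Ages, and whether each library came from a separate animal, are not given in the sources used here, so p-values measure only the spread between these libraries, which may be technical.

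Collagens are trimers of chains wound into a triple helix. Fibrillar collagens (types I, III and V) build the tough fibres of connective tissue, which in the brain lies mainly in the meninges and around larger vessels and is made by fibroblasts. Basement membranes are thin sheets under endothelium and around pericytes and glial endfeet: laminins, each an alpha, a beta and a gamma chain, polymerise into one network, and collagen IV forms another that is crosslinked beside it.

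Values are FPKM, the fragments of a gene scaled by its length and by the depth of the library, so levels can be compared between genes per length. The reads behind the values ranged from 39239183 to 40335590 per library, and 22153 to 22698 genes were above 0. The 6 markers each of neurons, astrocytes, oligodendrocytes and microglia were measured, with lowest mean levels between 8.53 and 19.4 FPKM. The first principal component (42.3% of the variance) set control 2 apart, at -17.5 against -2.93 to 8.21 in the other 5 libraries. Of the 12229 genes with a mean of at least 1 FPKM, 20 passed an adjusted p of 0.05 between PS and control (0.164%; limma with Benjamini-Hochberg adjustment). That number was 48 with the replicate number as a block, 66 without control replicate 3, and 0 without PS replicate 2. An unadjusted p under 0.05 was reached by 5.94% of the genes. All 3 PS libraries lay above all 3 controls for 4.93% and below them for 6.33%.

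Sequences at the starts of chains that are made together are shown first. Col4a1 and Col4a2, the chains of the vascular collagen IV trimer, are read in opposite directions from neighbouring starts. In RefSeq's promoter table (mouse GRCm38.p6, an older build than the GRCm39 of the deposited files) the start of Col4a2 lies at position 11312805 and that of Col4a1 at 11312826. RefSeq's gene table places the start of Col4a1 elsewhere, so the stretch holds for the starts of the promoter table only. With these starts each gene is read across the start of the other and then away from it. The stretch therefore lies after both starts and before neither. The 22 bases from one of these starts to the other, on the plus strand at chr8:11312805-11312826, with a GC box (GGGCGG) in capitals, were:
Col4a2 and Col4a1 starts: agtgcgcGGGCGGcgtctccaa

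Col1a2 encodes the second chain of type I collagen, and it was the most abundant fibrillar collagen here. The 250 bases before its start, chr6:4505368-4505617 on the plus strand, hold a CCAAT box that begins 109 bases before the start and is in capitals:
Col1a2 upstream: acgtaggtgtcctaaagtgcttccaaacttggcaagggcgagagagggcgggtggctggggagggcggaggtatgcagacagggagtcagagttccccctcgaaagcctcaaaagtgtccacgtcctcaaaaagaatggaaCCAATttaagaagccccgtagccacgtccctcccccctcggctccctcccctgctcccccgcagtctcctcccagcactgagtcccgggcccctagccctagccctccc

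The table matched 40 of the 55 genes by symbol. A window of 250 bases before to 50 after a start held CCAAT, on either strand, in 14 of the 40 (35%), and in 41.1% of the 27025 genes of the table. GGGCGG, searched the same way, was in 25 of the 40 (62.5%) and in 38.2% of all genes. A match describes letters in a window, not a bound site.

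These matrix genes were low in whole brain. Only 2 of the 55 had a mean of 5 FPKM or more, 16 lay between 1 and 5, 24 between 0.1 and 1, and 13 under 0.1, and none was at 0 in all libraries. Per length, the most abundant was Col25a1 (mean 7.1 FPKM), a transmembrane collagen of neurons, followed by Lamb2 (5.5), Col9a3 (4.89), Col1a2 (4.82) and Lamc1 (4.73). The 18 genes at or above 1 FPKM, 13 collagens and 5 laminins, were tested and had 234 to 2493 reads per library. The other 37 were not tested.

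None of the 18 tested collagen and laminin genes passed the adjusted threshold. The lowest adjusted p of those described was 0.801 (Lamb1). Limma-voom on read numbers recovered from the FPKM steps and the replicate block also called none. With libraries weighted by their fit, 2 were called (Col4a1 and Col25a1), where 632 of all 12229 genes tested were called. An unadjusted p under 0.05 was reached by 3 of the 18, among them Lamb1 and Col25a1, both higher in PS. In 15 of the 18 the fold change was above 0, with a median log2 fold change of 0.13, beside 51.4% and a median of 0.00 over all genes tested. When 1 library was left out this number was 12 (without PS replicate 2) to 15 (without PS replicate 3), and with weighted libraries 13. Partner chains such as Col1a1 and Col1a2 are among the 18, so they are not 18 separate observations. All fold changes were computed on log2(FPKM + 1), so that those of low genes come out too small. In bulk tissue, fewer cells of a type and less RNA per cell cannot be told apart.

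**Figure D1:**
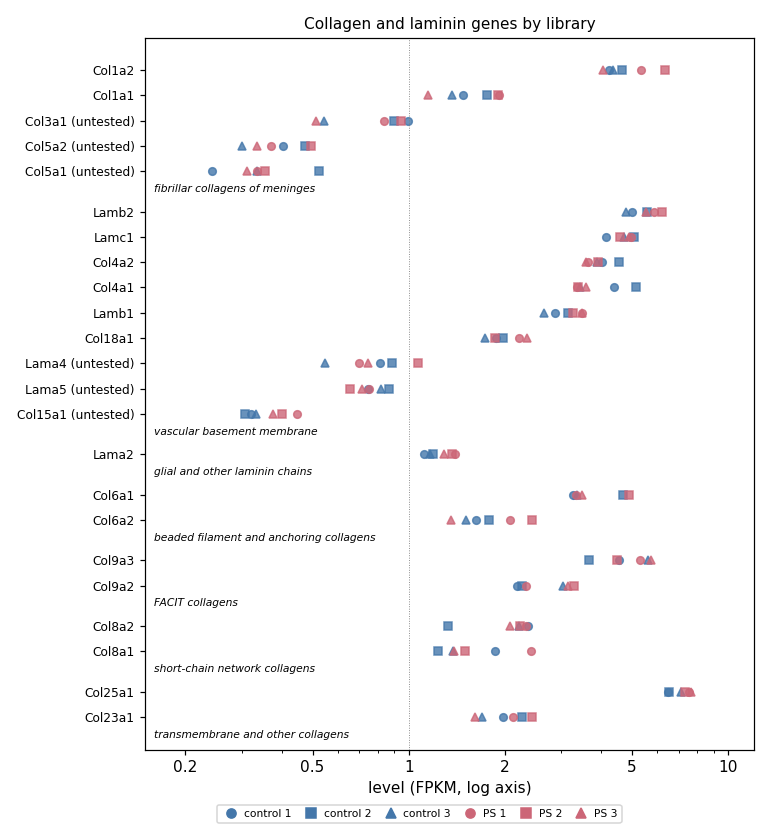
Level in FPKM (log axis) of 17 tested collagens and laminins and of the untested members of the first 2 classes, 1 symbol per library, control blue and PS red, with the class name under its genes and a dotted line at 1 FPKM. Lamb1, Lama2, Col25a1 and Col15a1 show all PS symbols to the right of all controls, while the fibrillar collagens mix.

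The fibrillar collagens of connective tissue did not separate the groups. Col1a2 measured 4.25, 4.641 and 4.363 FPKM in controls 1 to 3 and 5.324, 6.319 and 4.049 in PS 1 to 3. PS 1 and 2 were the highest of the 6 and PS 3 the lowest, so the groups overlapped around the controls. The log2 fold change was 0.19 (SE 0.122, 95% interval -0.09 to 0.46, limma adjusted p = 0.938). It was 0.061 without PS replicate 2 and 0.329 without PS replicate 3. Its partner Col1a1, which contributes the other chain of type I collagen, had 1.483, 1.758 and 1.366 FPKM in controls and 1.917, 1.902 and 1.146 in PS. The same PS library was again lowest, and the log2 fold change was 0.06 (95% interval -0.23 to 0.34, adjusted p = 0.992). It was -0.02 without PS replicate 1 and -0.016 without PS replicate 2. Col1a2 had 2.64 to 3.53 times the FPKM of Col1a1 in the 6 libraries.

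Col3a1, the chain of reticular fibres, lay just under the limit for testing, with 0.9961, 0.8977 and 0.5442 FPKM in controls and 0.8395, 0.9446 and 0.512 in PS. The type V chains that help start fibrils were lower still: Col5a2 spanned 0.3013 to 0.4739 FPKM in controls and 0.3362 to 0.4947 in PS. For Col5a1 the spans were 0.2426 to 0.5238 and 0.3111 to 0.3552 FPKM. All 3 overlapped between groups, and PS 3 was the lowest library in 3 of the 5 fibrillar genes.

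Markers of meningeal fibroblasts, the cells that make these fibres, were on average highest and lowest in nearly the same libraries as the mean of Col1a1 and Col1a2. Their mean log2 level, relative to the control mean, was -0.05, 0.04 and 0.01 in controls and 0.11, 0.37 and -0.05 in PS. For Col1a1 and Col1a2 together it was -0.04, 0.09 and -0.06 in controls and 0.21, 0.32 and -0.17 in PS. In both sets PS 2 was the highest library, and PS 3 was the lowest or tied for it. The single fibrillar genes did not all follow this. Col1a2 and Col5a2 were highest in PS 2, Col1a1 in PS 1, Col3a1 in control 1 and Col5a1 in control 2. The lowest library was control 1 for Col5a1 and control 3 for Col5a2. Of the 12 meningeal markers 11 were tested, 10 were higher in PS and none was called, and none was at 0 in all libraries. The part of the meninges taken with each brain in these values was not tested.

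**Figure D2:**
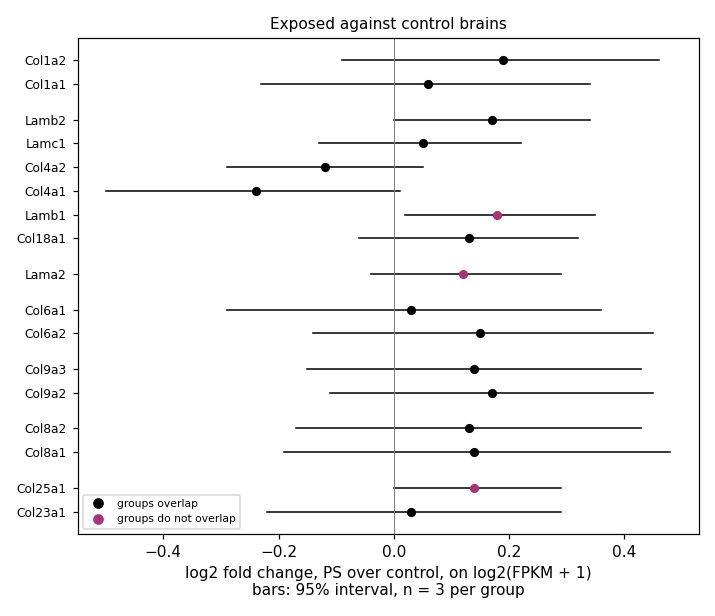
Log2 fold change of PS over control on log2(FPKM + 1) with its 95% interval for 17 tested genes, grouped by class, with purple points where the groups do not overlap. Col4a1 and Col4a2 lie left of 0 and the other 15 right of it, and of those shown only the interval of Lamb1 leaves out 0 as drawn. The lower ends for Col25a1 and Lamb2 round to 0.00 and -0.00.

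In the vascular basement membrane the collagen IV chains and the laminin beta chains lay on opposite sides of 0, with no call on either side. Col4a1 measured 4.383, 5.132 and 3.429 FPKM in controls and 3.372, 3.399 and 3.578 in PS. Controls 1 and 2 were the highest libraries, and control 3 lay within the PS range. The log2 fold change was -0.24 (SE 0.111, 95% interval -0.50 to 0.01, adjusted p = 0.844). It was -0.134 without control replicate 2 (adjusted p = 0.867), -0.369 without control replicate 3 (adjusted p = 0.117) and -0.266 with weighted libraries (adjusted p = 0.0436).

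Col4a2, its partner in the trimer, had 4.015, 4.536 and 3.877 FPKM in controls and 3.652, 3.917 and 3.588 in PS. The groups overlapped through control 3 and PS 2, and the log2 fold change was -0.12 (95% interval -0.29 to 0.05, adjusted p = 0.919). Without control replicate 2 it was -0.068. The ratio of Col4a1 to Col4a2 stayed between 0.868 and 1.13 in the 6 libraries.

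Lamb1, the beta chain found in most endothelial laminins, measured 2.879, 3.143 and 2.659 FPKM in controls and 3.499, 3.265 and 3.48 in PS. All PS libraries lay above all controls, with a log2 fold change of 0.18 (SE 0.074, 95% interval 0.02 to 0.35, adjusted p = 0.801). Lamb2, the beta chain of mature vessel and synaptic basement membranes, had 5.004, 5.586 and 4.797 FPKM in controls and 5.865, 6.212 and 5.54 in PS. Only control 2 reached into the PS range, and the log2 fold change was 0.17 (95% interval -0.00 to 0.34, adjusted p = 0.842).

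Lamc1, the gamma chain shared by most laminins, had 4.138, 5.072 and 4.717 FPKM in controls and 4.952, 4.599 and 4.892 in PS. These overlapped widely (log2 fold change 0.05, 95% interval -0.13 to 0.22, adjusted p = 0.983), and the value was -0.02 without control replicate 1. Col18a1, whose end fragment is the angiogenesis inhibitor endostatin, had 1.876, 1.976 and 1.736 FPKM in controls and 2.219, 1.86 and 2.345 in PS, with a log2 fold change of 0.13 (adjusted p = 0.93). Here PS 2 lay among the controls, and the value was 0.198 without it and 0.085 without PS replicate 3.

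Lama4 and Lama5, the endothelial alpha chains, were under the limit for testing. Lama4 spanned 0.5467 to 0.8852 FPKM in controls and 0.6982 to 1.066 in PS, and Lama5 0.7442 to 0.867 and 0.6562 to 0.7524. Both overlapped. Col15a1, a relative of Col18a1 at the outer face of basement membranes, had 0.3221, 0.3066 and 0.3321 FPKM in controls and 0.4461, 0.4008 and 0.3759 in PS, with no overlap, from 64 to 95 reads per library.

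Of the 9 vascular basement membrane genes 6 were tested, 4 with a fold change above 0 and 2 below, and their median log2 fold change was 0.09. Endothelial markers were mostly lower in PS: 9 of 12 had a fold change below 0. In 4 of the 12 all PS libraries lay below all controls, as they did in 6.33% of all genes tested. The mean log2 level of these 12 markers was -0.07, 0.11 and -0.04 in controls and -0.12, -0.06 and -0.13 in PS. None of the 12 was called or at 0 in all libraries. The basement membrane genes had means of -0.03, 0.12 and -0.09 in controls and 0.04, 0.01 and 0.04 in PS, so control 2 was highest in both sets. Pericyte and smooth muscle markers, of which 10 of 12 were tested, split 5 to 5, at -0.06 to 0.08 in controls and -0.06 to 0.13 in PS, with none at 0 in all libraries. Red cell markers were lower in PS in 5 of 5 genes, at 0.21, 0.14 and -0.35 in controls and -1.33, -1.32 and -0.76 in PS; none was called, and 4 were with the replicate block. The part of vessel and blood content in these values was not tested.

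**Figure D3:**
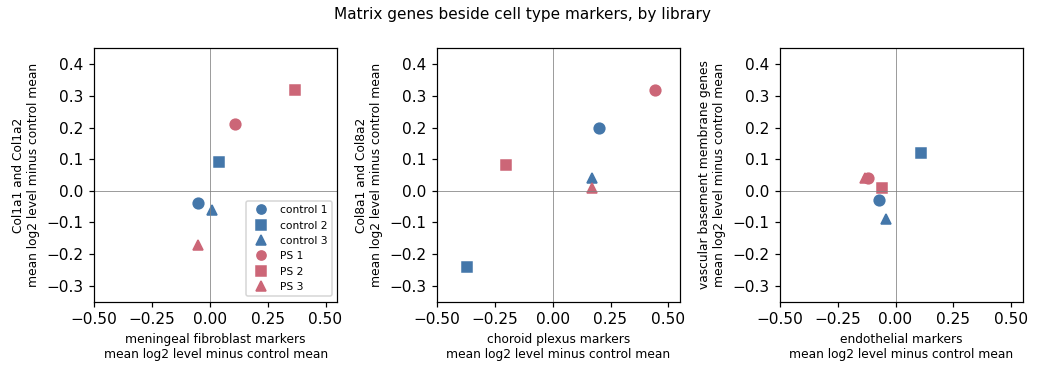
Mean log2(FPKM + 1) relative to the control mean, 1 point per library, for 3 sets of matrix genes (vertical axes) and for markers of a cell type (horizontal axes). PS 2 is at the top right for type I collagen and meningeal markers (0.32 and 0.37), PS 1 for Col8a1 with Col8a2 and choroid plexus markers (0.32 and 0.44), and control 2 for basement membrane and endothelial genes (0.12 and 0.11).

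The fibrillar genes were then set against the basement membrane genes within each library. The mean log2 level of Col1a1 and Col1a2 minus that of the 6 tested basement membrane genes was -0.345, -0.359 and -0.302 in controls and -0.157, -0.0255 and -0.542 in PS. The controls lay close together and the PS libraries fell on both sides of them, so the means of -0.335 ± 0.0297 and -0.241 ± 0.269 (SD, n = 3) differed by 0.0937, less than the spread of the PS libraries. With every gene of mean 0.1 FPKM or more, which brings in Col3a1, Col5a1, Col5a2, Lama4, Lama5 and Col15a1, the difference was 0.009. Leaving out 1 library at a time gave -0.014 to 0.244. As summed FPKM, fibrillar over basement membrane genes was 0.305, 0.302 and 0.302 in controls and 0.345, 0.395 and 0.252 in PS. The contrast between meningeal and vascular matrix therefore varied more among the PS libraries than between the groups.

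Levels were also summed over the alpha and over the beta chains of laminin. The beta chains (Lamb1, Lamb2 and Lamb3) summed to 8.32, 9.17 and 7.84 FPKM in controls and 9.75, 9.75 and 9.51 in PS, without overlap. The alpha chains summed to 3.27 ± 0.246 FPKM in controls and 3.51 ± 0.246 in PS (SD, n = 3), which overlapped. Lama2 made up 33.6 to 41.3% of alpha chain FPKM. A ratio chosen after the values were seen, Col4a1 and Col4a2 over Lamb1, Lamb2 and Lamc1, was 0.699, 0.7 and 0.6 in controls and 0.491, 0.52 and 0.515 in PS. It is given as a description with no test.

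**Figure D4:**
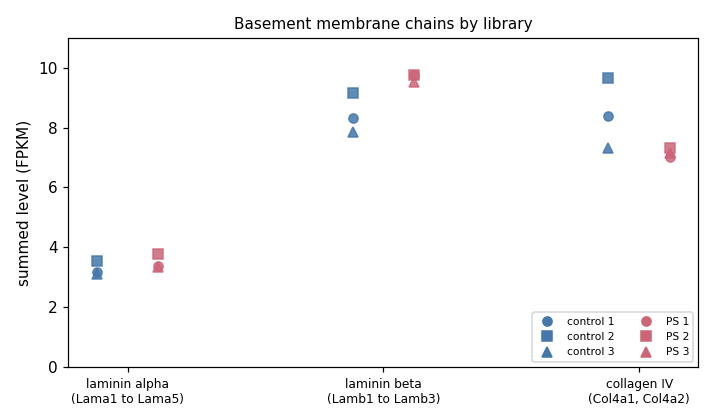
Summed FPKM of the laminin alpha and beta chains and of Col4a1 with Col4a2, 1 symbol per library, controls blue at the left and PS red at the right of each pair. The beta chains of the PS libraries (9.51 to 9.75) lie above the controls (7.84 to 9.17), and the alpha sums overlap.

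Among the other laminins, Lama2, the alpha chain of the glial side of the vessel wall and of muscle, had 1.116, 1.193 and 1.167 FPKM in controls and 1.398, 1.367 and 1.294 in PS. All PS libraries lay above all controls (log2 fold change 0.12, 95% interval -0.04 to 0.29, adjusted p = 0.903).

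Col25a1, the neuronal transmembrane collagen whose shed part was found in amyloid plaques, measured 6.462, 6.512 and 7.116 FPKM in controls and 7.532, 7.332 and 7.642 in PS. Every PS library exceeded every control, with a log2 fold change of 0.14 (SE 0.064, adjusted p = 0.838). With weighted libraries the fold change was 0.182 and the adjusted p 0.0484. The 6 neuron markers had a mean log2 level of -0.07, 0.13 and -0.05 in controls and 0.01, 0.04 and -0.04 in PS. Col23a1, another transmembrane collagen, overlapped (1.692 to 2.259 FPKM in controls and 1.618 to 2.426 in PS, log2 fold change 0.03, adjusted p = 0.995), and its sign turned without control replicate 3 (-0.034) and without PS replicate 2 (-0.052).

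Col8a1 and Col8a2, short-chain collagens that form sheets such as that under the corneal endothelium, varied by library. Col8a1 had 1.864, 1.237 and 1.373 FPKM in controls and 2.42, 1.504 and 1.384 in PS, and Col8a2 2.366, 1.33 and 2.218 in controls and 2.329, 2.229 and 2.074 in PS. Control 2 was lowest for both. Their log2 fold changes of 0.14 and 0.13 had an adjusted p of 0.975 each, and became -0.068 and -0.046 with weighted libraries, -0.02 for Col8a1 without PS replicate 1 and -0.036 for Col8a2 without control replicate 2. The mean log2 level of both was 0.20, -0.24 and 0.04 in controls and 0.32, 0.08 and 0.01 in PS. Choroid plexus markers, 8 of 8 higher in PS with none called and none at 0 in all libraries, had 0.20, -0.37 and 0.17 in controls and 0.44, -0.20 and 0.17 in PS. The amount of choroid plexus in each sample as part of these values was not tested.

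Col9a2 and Col9a3 encode chains of collagen IX, which sits on the surface of cartilage fibrils. Col9a2 had 2.183, 2.264 and 3.032 FPKM in controls and 2.329, 3.286 and 3.158 in PS, and Col9a3 4.541, 3.678 and 5.618 in controls and 5.279, 4.477 and 5.734 in PS. Both overlapped, with log2 fold changes of 0.17 and 0.14 (adjusted p = 0.946 and 0.973). Leaving out 1 library gave 0.099 (without PS replicate 2) to 0.281 (without PS replicate 1) for Col9a2, and 0.02 (without control replicate 2) to 0.27 (without control replicate 3) for Col9a3. Their mean log2 level was -0.06, -0.17 and 0.23 in controls and 0.06, 0.14 and 0.27 in PS. The 6 oligodendrocyte markers, all higher in PS with none called, had 0.04, -0.29 and 0.25 in controls and 0.27, 0.22 and 0.32 in PS. In both means control 2 was lowest and PS 3 highest, while Col9a2 alone was lowest in control 1 and highest in PS 2. The part of oligodendrocytes in the Col9 values was not tested.

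Col6a1 and Col6a2, chains of the beaded microfibrils around cells, did not share a pattern in every library. Col6a1 had 3.276, 4.692 and 3.363 FPKM in controls and 3.336, 4.876 and 3.482 in PS, with library 2 of each group highest and each PS library above the control of the same number. Its log2 fold change was 0.03 (adjusted p = 0.996). It was -0.039 without control replicate 1, -0.024 without control replicate 3 and -0.103 without PS replicate 2. It was 0.168 without control replicate 2, 0.116 without PS replicate 1 and 0.092 without PS replicate 3. Leaving out any library breaks a same-numbered pair. With the replicate block the adjusted p of Col6a1 was 0.974. Col6a2 had 1.621, 1.78 and 1.506 FPKM in controls and 2.081, 2.44 and 1.359 in PS. PS 3 was again the lowest library, and the log2 fold change was 0.15 (adjusted p = 0.973), or 0.034 without PS replicate 2 and 0.306 without PS replicate 3.

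The 37 untested genes had means down to 0.0168 FPKM, and outside the fibrillar and basement membrane classes the highest were Lamc3 (0.996 FPKM), Col11a2 (0.941) and Col20a1 (0.892). These 3 lay just below the limit of 1 FPKM, and Lama2 (1.26) and Col1a1 (1.59) just above it. Over all 55 genes, 7 had every PS library above every control and 46 overlapped. Of all 26556 genes above 0 in any library, 4.12% lay above and 5.77% below. Beside those described, the 4 low genes without overlap, named after their values were seen, were Lama1, Col26a1 and Col10a1, higher in PS, and Col24a1, lower in PS. Lama1, a laminin chain of pial and early basement membranes, had 0.309 to 0.3279 FPKM in controls and 0.334 to 0.497 in PS. Col26a1 had 0.2446 to 0.2576 FPKM in controls and 0.3395 to 0.4231 in PS, from 39 to 68 reads per library. Col10a1 (3 to 7 reads) and Col24a1 (3 to 19 reads) rested on too few reads to be described further.

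The enzymes, receptors and partners of these chains were counted in 6 lists, and no gene of any list was called. Collagen processing enzymes were tested in 17 of 26 genes, 9 with a fold change above 0 and 8 below (median log2 fold change 0.01). The lowest p were those of Plod1, a lysyl hydroxylase (5.7 ± 0.129 FPKM in controls and 6.49 ± 0.236 in PS, adjusted p = 0.771), P4ha1, a prolyl hydroxylase (10.6 ± 3.3 and 7.96 ± 0.599, adjusted p = 0.891), and Crtap, a partner in prolyl hydroxylation (3.01 ± 0.328 and 2.62 ± 0.256, adjusted p = 0.918). P4ha1 was 6.845 FPKM in control 3 and 12.25 and 12.82 in the other controls, and its adjusted p was 0.0192 without control replicate 3. Plod1 had an adjusted p of 0.0467 with weighted libraries.

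Other basement membrane proteins (9 of 12 tested) split 5 above and 4 below 0, with a median of 0.02. Tinagl1, Pxdn, which crosslinks collagen IV, and Sparc, a collagen binder, showed log2 fold changes of -0.14, -0.16 and -0.13 (adjusted p = 0.939, 0.96 and 0.975).

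Receptors for collagen and laminin (9 of 13 tested) had 6 above and 3 below, with a median of 0.03. Itgb4, an integrin chain of hemidesmosomes, measured 2.33, 1.836 and 2.373 FPKM in controls and 3.154, 2.593 and 2.792 in PS. All PS libraries lay above all controls (log2 fold change 0.28, adjusted p = 0.692). Bcam, a laminin receptor, and Ddr1, a collagen receptor kinase, showed log2 fold changes of 0.18 and 0.13 (adjusted p = 0.834 and 0.916).

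Matrix proteases and their inhibitors (10 of 14 tested) had 6 above and 4 below, with a median of 0.02. Adamts1, a secreted protease, had 3.146, 2.849 and 2.805 FPKM in controls and 2.24, 1.924 and 2.538 in PS. No PS library reached the controls (log2 fold change -0.29, adjusted p = 0.57, and 0.0277 with weighted libraries). The membrane-bound proteases Mmp15 and Mmp14 showed log2 fold changes of 0.16 and -0.15 (adjusted p = 0.784 and 0.852), neither with overlap.

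Small leucine-rich proteoglycans, which bind and space collagen fibrils, were tested in 7 of 8 genes, 6 above and 1 below, with a median of 0.14. Prelp, which anchors basement membranes to connective tissue, had 5.76, 5.369 and 6.303 FPKM in controls and 7.712, 7.392 and 7.141 in PS. All PS libraries were above the controls (log2 fold change 0.31, SE 0.072, adjusted p = 0.329, and 0.0102 with weighted libraries). Decorin (Dcn) had 11.3 ± 1.17 and 13 ± 1.26 FPKM and lumican (Lum) 1.08 ± 0.372 and 1.32 ± 0.151, overlapping in both (adjusted p = 0.856 and 0.946). With weighted libraries their adjusted p were 0.0347 and 0.0408. The mean log2 level of the list was highest in PS 2 (0.31), as were the meningeal markers, with which it shares 1 gene (Fmod).

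The TGF-beta ligands, receptors and targets, which control matrix production in many tissues, were tested in 13 of 15 genes, with 3 above and 10 below 0 and a median of -0.03. Ccn2, a secreted target also called connective tissue growth factor, had 14.66, 17.84 and 16.7 FPKM in controls and 10.19, 13.9 and 11.59 in PS. Its groups did not overlap, with a log2 fold change of -0.44 (SE 0.11, adjusted p = 0.409, and 0.0253 with the replicate block). Its relative Ccn1 had a log2 fold change of -0.31 (adjusted p = 0.844) with overlap, and the ligand Tgfb2 of 0.19 (adjusted p = 0.842) without.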

How the data were processed

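For each of the 6 libraries the authors deposited FPKM values by gene. All were used, in the groups of their labels. Per the labels' protocols, RNA came from a TRIzol extraction and went into VAHTS Universal V6 libraries. The submitters' processing notes name GRCm39, fastp, HISAT2, HTSeq and R 3.2.0, without settings. The sources used here do not give the strand setting of the counting, so overlapping genes are uncertain.

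The FPKM values were whole multiples of 1 read in 99.99 to 100% of values within 0.02 reads, which gave read numbers. Replicates differed by more than sampling noise (chi-square per degree of freedom 10.48 to 40.91). Limma 3.58.1 in R 4.3.3, with a variance trend, was fitted two-sided on log2(FPKM + 1) to 12229 genes with a mean of at least 1 FPKM (15149 left out), with Benjamini-Hochberg adjustment over all of them and a threshold of 0.05. The fit was tested on simulated data with 200 changed genes and independent noise in each gene and library. The simulation held no deviations shared between libraries and no library set apart, so it does not show how the fit behaves with them. Same-numbered libraries of the 2 groups deviated together (correlations 0.181, 0.185 and 0.161, against -0.217 to 0.0253 for other numbers), a pairing seen in the data and not stated in the labels.

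Members and lists were chosen with earlier results of these data known. Named were all fibrillar and vascular basement membrane genes, other members of at least 1 FPKM (1 is not reported here), the 3 highest below it, and the 3 lowest p of each list. Alternatives were other pseudocounts, filters, scalings, library weights, the block, limma-voom and leaving out each library.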

Additional observations from a re-analysis of the deposited data

How the results depend on the processing

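The number of genes called, 20, was 1 with no filter, 9 at a mean of at least 5 FPKM, 632 with libraries weighted by their fit, 48 with the replicate block, and 0 to 66 when 1 library was left out; the causes were not tested. Members called were 0 in 17 of the 18 alternatives and 2 with weighted libraries (Col4a1 and Col25a1), where control 1 had a weight of 6.01 and controls 2 and 3 of 0.326 and 0.353. The replicate block changed no call among the members, and of the genes named only that of Ccn2. The median of the basement membrane genes was 0.166 at a mean of at least 5 FPKM, where Lamb2 alone was left. The fibrillar median of 0.12 was 0.008 at a mean of at least 0.1 FPKM, where all 5 genes entered. Of 18 tested members, 12 kept their sign in every alternative in which they were tested and 6 did not; at 5 FPKM only Lamb2 and Col25a1 were. Leaving out 1 library gave -0.020 to 0.201 for Col1a1, -0.052 to 0.142 for Col23a1, -0.103 to 0.168 for Col6a1, -0.020 to 0.247 for Col8a1, -0.036 to 0.229 for Col8a2 and -0.020 to 0.101 for Lamc1. With weighted libraries Col8a1 was -0.068 and Col8a2 -0.046. No fibrillar value could be had at 5 FPKM. Collagens and laminins under 1 FPKM rest on 1 to 491 reads per library.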
